A study of Bos taurus with 31 samples.

Results

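The 6 genes described here are those with the smallest p-values for maternal vitamin and mineral supplementation in a table of 27607 bovine genes, measured in the liver of 31 female fetuses. They are ENSBTAG00000049916, ENSBTAG00000006921, ENSBTAG00000043250, ENSBTAG00000000460, ENSBTAG00000043570 and ENSBTAG00000054661, given in order of that p-value. All 6 were among the 14228 genes with enough counts to be tested. The contrast that chose them compared supplemented with unsupplemented dams, averaged over the rate of gain, so the 6 genes were selected on the values of that contrast, and their supplement differences below are a description with no test. Gain and the interaction of gain with supplementation played no part in the choice, and those were tested. The way the genes varied together within groups was tested too. The rule used no correlation between genes, but its p-value rests partly on the spread within groups. Genes that vary together also tend to differ together between groups, so the choice itself can gather such genes.

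The fetuses were taken on day 83 of gestation from Angus-cross heifers inseminated with female-sexed semen of 1 sire. VTM dams were fed 0.45 kg per day of ground corn carrying a vitamin and mineral premix, from 71 to 148 days before breeding until collection, and NoVTM dams were not. Whether NoVTM dams received the corn without the premix is not given in the sources used here, so the premix and its corn cannot be told apart. All dams ate a mixed ration of triticale hay, corn silage, distillers grains and ground corn. From breeding, LG dams had this ration with a target gain of 0.28 kg per day, while MG dams were also fed an energy and protein blend with corn, distillers grains, wheat middlings, fish oil and urea to gain 0.79 kg per day. NoVTM_LG, VTM_LG and NoVTM_MG each had 8 fetuses and VTM_MG had 7, each fetus from its own dam. Dams were bred in groups that the labels do not give per sample, so no breeding group could be compared.

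In the fetus the liver is both a metabolic organ and a site of blood formation, and it stores iron, copper, zinc and fat-soluble vitamins that cross the placenta from the dam. Trace minerals act there as cofactors of enzymes and of transcription factors, and vitamins A and D act through nuclear receptors that bind DNA. The table lists genes by Ensembl identifier alone, and 0 of its identifiers were found in the supplied RefSeq table of 37063 bovine genes. The 6 genes therefore have no symbol here and nothing is said of their function, and the labelled tissue was not checked against liver marker genes.

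Library totals ran from 13062894 to 18458776 counts. Libraries VTM_LG replicate 4 and VTM_LG replicate 7 stood apart from the other 29 on the first principal component of all tested genes, at 63.0 and 37.9 against -20.2 to 6.69. They did not stand together in the genes described here. VTM_LG replicate 4 had the highest level of its group in ENSBTAG00000049916, ENSBTAG00000043250, ENSBTAG00000043570 and ENSBTAG00000054661, and VTM_LG replicate 7 had the lowest in 3 of those 4. Levels are in CPM, the gene's share of all counts scaled to a fixed library size, after TMM scaling, which adjusts for library composition, and are not divided by gene length, so levels are compared between groups and not between genes.

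Of the 6 genes, 4 had lower means in VTM fetuses and 2 had higher means. ENSBTAG00000049916 had the smallest p-value of the whole table. Its level in NoVTM_LG ran from 1.06 to 5.66 CPM with a median of 3.76, and in VTM_LG from 0.889 to 4.00 CPM with a median of 1.61. At moderate gain it ran from 2.81 to 7.66 CPM with a median of 4.56 in NoVTM_MG, and from 1.18 to 3.53 CPM with a median of 2.39 in VTM_MG. The ranges overlapped at both levels of gain. At moderate gain 6 of 7 VTM fetuses were nevertheless below the lowest NoVTM fetus. At low gain the overlap came from both sides, since NoVTM_LG replicate 4 was low at 1.06 CPM and VTM_LG replicate 4 was high at 4.00 CPM.

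The group means of ENSBTAG00000049916 rose in the order VTM_LG, VTM_MG, NoVTM_LG and NoVTM_MG, at 1.89 ± 0.957 (SD, n = 8), 2.28 ± 0.746 (n = 7), 3.59 ± 1.38 (n = 8) and 4.98 ± 1.71 CPM (n = 8). No step between neighbours in that order exceeded the larger SD of its pair. The fitted log2 difference of VTM from NoVTM was -0.93 at low gain (edgeR, SE 0.275, 95% interval -1.49 to -0.37) and -1.13 at moderate gain (SE 0.277, -1.69 to -0.57). These and the other intervals on supplementation take no account of how the genes were chosen.

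ENSBTAG00000043250 ran from 1.12 to 8.68 CPM in NoVTM_LG (median 4.29) and from 1.33 to 2.46 CPM in VTM_LG (median 2.05). In NoVTM_MG it ran from 2.46 to 8.30 CPM (median 5.94), and in VTM_MG from 1.51 to 6.60 CPM (median 2.91). At low gain 7 of 8 NoVTM fetuses were above every VTM fetus, and the exception was again NoVTM_LG replicate 4. The group means rose in the same order as above, at 2.00 ± 0.420 (SD, n = 8), 3.32 ± 1.64 (n = 7), 4.68 ± 2.51 (n = 8) and 5.48 ± 2.01 CPM (n = 8), with no step larger than the larger SD. The log2 difference was -1.23 at low gain (edgeR, SE 0.302, 95% interval -1.84 to -0.61) and -0.73 at moderate gain (SE 0.298, -1.34 to -0.13), where VTM_MG replicate 2 was the highest of its group at 6.60 CPM.

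ENSBTAG00000043570 was counted far more often, between 6419 and 33274 times per library. Its level ran from 454 to 2091 CPM in NoVTM_LG (median 1068) and from 437 to 1080 CPM in VTM_LG (median 788). At moderate gain it ran from 997 to 2490 CPM in NoVTM_MG (median 1422) and from 440 to 1178 CPM in VTM_MG (median 861). At low gain 2 of 8 VTM fetuses were above the NoVTM median, and at moderate gain 0 of 7 were. VTM_LG and VTM_MG were nearly level at 755 ± 277 (SD, n = 8) and 790 ± 271 CPM (n = 7), below NoVTM_LG at 1154 ± 531 (n = 8) and NoVTM_MG at 1612 ± 625 CPM (n = 8), and again no step between neighbours exceeded the larger SD. The fitted log2 difference was -0.61 at low gain (edgeR, SE 0.266, 95% interval -1.15 to -0.07) and -1.03 at moderate gain (SE 0.279, -1.60 to -0.46).

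ENSBTAG00000054661 lay between 672 and 2750 CPM in NoVTM_LG (median 1181), 425 and 1510 CPM in VTM_LG (median 727), 801 and 3478 CPM in NoVTM_MG (median 1680), and 469 and 1162 CPM in VTM_MG (median 768). Of the NoVTM fetuses, 6 of 16 were above the highest VTM fetus, and of the VTM fetuses 6 of 15 were below the lowest NoVTM fetus. VTM_MG and VTM_LG had close means of 804 ± 238 (SD, n = 7) and 818 ± 424 CPM (n = 8), followed by 1296 ± 666 CPM in NoVTM_LG (n = 8) and 1783 ± 925 CPM in NoVTM_MG (n = 8), each step being within the larger SD. The log2 difference was -0.66 at low gain (edgeR, SE 0.307, 95% interval -1.29 to -0.04) and -1.15 at moderate gain (SE 0.323, -1.81 to -0.49). Without NoVTM_LG replicate 7, the highest of its group, the low-gain difference was -0.41.

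Higher levels in VTM fetuses were measured for ENSBTAG00000006921 and ENSBTAG00000000460, with smaller fold differences and less spread than in the other 4 genes. ENSBTAG00000006921 ran from 57.6 to 88.0 CPM in NoVTM_LG (median 71.9), from 74.9 to 100 CPM in VTM_LG (median 90.5), from 50.2 to 96.8 CPM in NoVTM_MG (median 67.6) and from 65.2 to 108 CPM in VTM_MG (median 101). All 8 VTM_LG fetuses and 6 of 7 VTM_MG fetuses were above the NoVTM median of their level of gain. The exception was VTM_MG replicate 2, the lowest VTM fetus at 65.2 CPM. Means rose in the order NoVTM_MG (68.2 ± 14.6 CPM), NoVTM_LG, VTM_LG and VTM_MG (93.7 ± 15.8 CPM), and only the step from NoVTM_LG (72.0 ± 10.1 CPM, SD, n = 8) to VTM_LG (88.7 ± 8.29 CPM, n = 8) exceeded the larger SD. The log2 difference was 0.30 at low gain (edgeR, SE 0.109, 95% interval 0.08 to 0.52) and 0.46 at moderate gain (SE 0.112, 0.23 to 0.69).

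ENSBTAG00000000460 ran from 3.21 to 5.74 CPM in NoVTM_LG (median 4.58), from 5.26 to 7.02 CPM in VTM_LG (median 5.56), from 3.11 to 6.47 CPM in NoVTM_MG (median 4.41) and from 5.02 to 8.89 CPM in VTM_MG (median 6.14). Every VTM fetus was above the NoVTM median of its level of gain, 8 of 8 and 7 of 7, and 10 of 16 NoVTM fetuses were below the lowest VTM fetus. The order of the group means was that of ENSBTAG00000006921. NoVTM_MG and NoVTM_LG were nearly level at 4.56 ± 1.03 and 4.60 ± 0.924 CPM, and the step from NoVTM_LG to VTM_LG (5.86 ± 0.655 CPM) was the 1 step beyond the larger SD. VTM_MG was at 6.50 ± 1.24 CPM. The log2 difference was 0.35 at low gain (edgeR, SE 0.135, 95% interval 0.07 to 0.62) and 0.51 at moderate gain (SE 0.139, 0.23 to 0.79). As the tissue was sequenced whole, a change in the number of cells of a type and a change in RNA per cell cannot be told apart for any of the 6 genes.

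**Figure D1:**
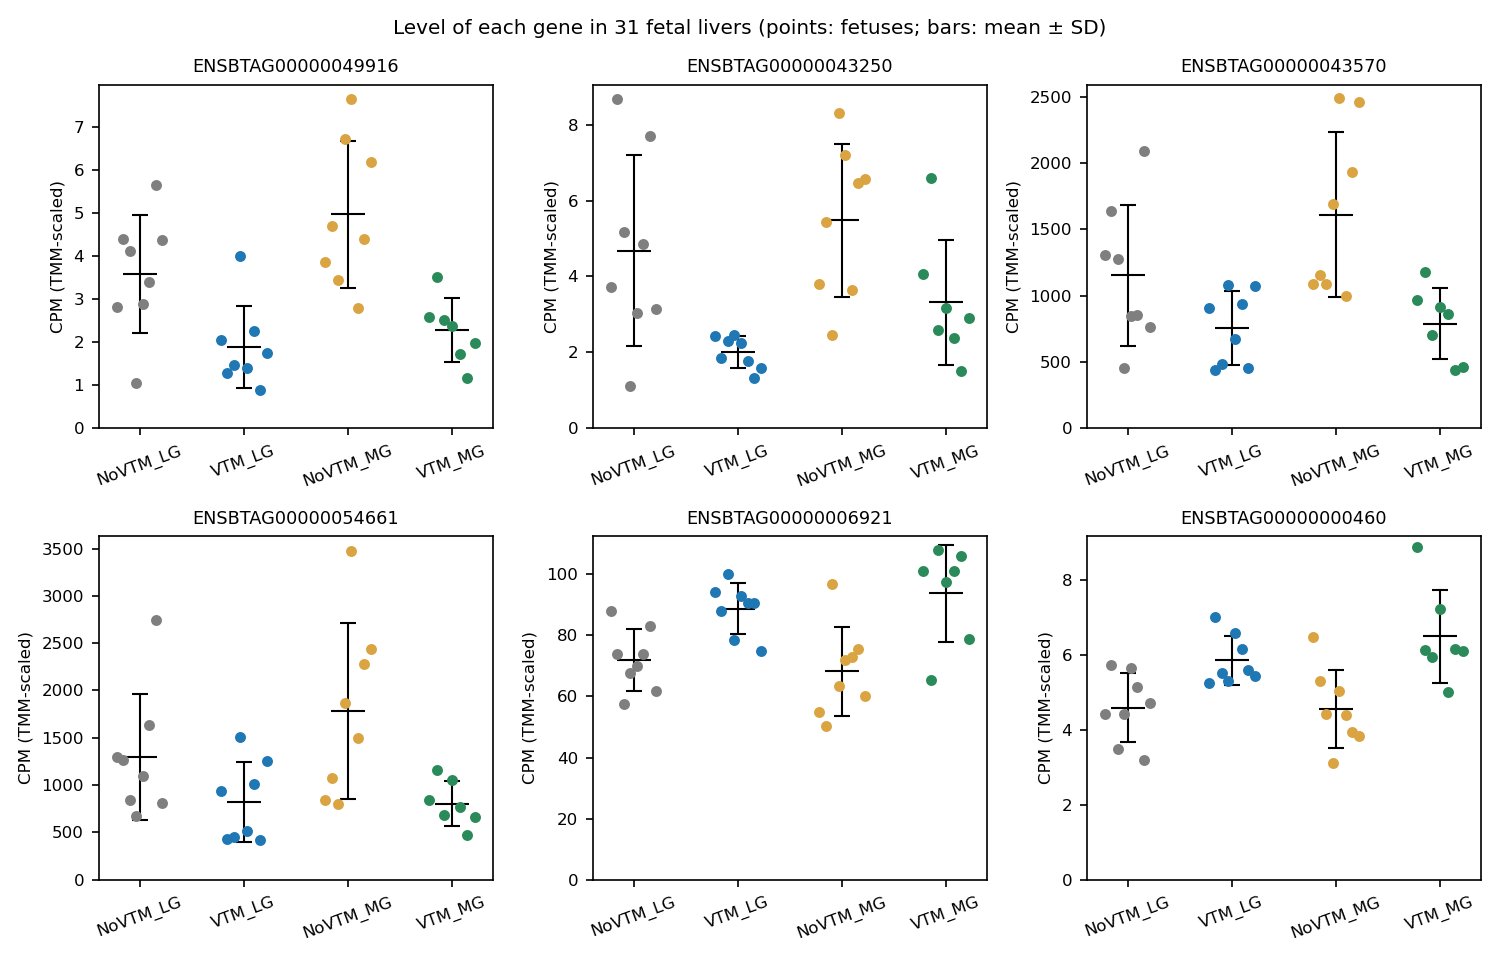
Level of each of the 6 genes in CPM (vertical axes, from 0) by treatment group, with 1 point per fetus and bars for mean ± SD (n = 8, 8, 8 and 7). The VTM and NoVTM points overlap in every panel, with 6 of 7 VTM_MG fetuses below every NoVTM_MG fetus for ENSBTAG00000049916 and for ENSBTAG00000043570.

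Without VTM_LG replicates 4 and 7, the log2 differences at low gain were -1.07 for ENSBTAG00000049916, -1.20 for ENSBTAG00000043250, -0.62 for ENSBTAG00000043570, -0.76 for ENSBTAG00000054661, 0.32 for ENSBTAG00000006921 and 0.38 for ENSBTAG00000000460. Each was within 1 SE of its value with all fetuses. The ranges of VTM and NoVTM fetuses separated for 0 of the 6 genes at either level of gain. Over all genes tested, the ranges separated for 0.0141% at low gain and 0.0211% at moderate gain. In the contrast averaged over gain, edgeR called 0 of the 6 at an adjusted p under 0.05, as it did over the whole table (0% of 14228 genes), while 2.90% of genes had an unadjusted p under 0.05. DESeq2 called 3 of the 6 (0.0211% of all genes) and limma voom 2 of the 6 (0.0141%). Since the rule used that contrast, nothing is read from these counts. At the edge of the rule, ENSBTAG00000054661 had an unadjusted p of 0.000265 by edgeR. ENSBTAG00000042458, the first gene outside it, had 0.000352, a log2 difference of -1.10 (SE 0.276) and levels of 0.760 ± 0.361 CPM over the 16 NoVTM and 0.356 ± 0.212 CPM over the 15 VTM fetuses (mean ± SD). The genes just inside and just outside thus had close p-values and fold differences.

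The interaction asks whether the supplement difference was larger at one level of gain than at the other. It was not past the threshold for any of the 6 genes (0 of 6, against 0% of all genes tested by edgeR). At an unadjusted p under 0.05 the count was also 0 of 6 by edgeR, where 10.7% of all genes were found, and 0 of 6 by limma voom (12.3%). By adjusted p, DESeq2 and limma voom each called 0 of 6 (0% of all genes in both). The supplement difference of ENSBTAG00000043250 was 0.50 higher on the log2 scale, and so nearer 0, at moderate gain (edgeR, SE 0.423, 95% interval -0.36 to 1.36, adjusted p = 0.675). For ENSBTAG00000054661 it was further below 0 at moderate gain by a log2 interaction of -0.48 (SE 0.44, -1.38 to 0.41, adjusted p = 0.7 in edgeR). For ENSBTAG00000043570 the interaction was -0.42 (95% interval -1.19 to 0.36) and for ENSBTAG00000049916 it was -0.20 (-0.99 to 0.60). Each of these 4 intervals was wider than the averaged supplement difference of its gene, so unequal differences at the 2 levels of gain lie within them as well as equal ones. Single libraries moved these values in both directions. With 1 library left out, the interaction of ENSBTAG00000043250 ran from 0.25 without VTM_MG replicate 2 to 0.65 without NoVTM_LG replicate 4, and it was 0.18 in limma voom. That of ENSBTAG00000054661 ran from -0.73 without NoVTM_LG replicate 7 to -0.27 without NoVTM_MG replicate 5. For ENSBTAG00000049916 the range was -0.33 without VTM_MG replicate 2 to 0.05 without VTM_LG replicate 4. ENSBTAG00000006921 and ENSBTAG00000000460 each had an interaction of 0.16, with narrower intervals of -0.16 to 0.48 and -0.23 to 0.55.

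Maternal gain, averaged over supplementation, changed 0 of the 6 genes by edgeR's adjusted p, against 0.0211% of all genes, and 0 of the 6 by DESeq2 (0.0633%) and by limma voom (0.0351%). At an unadjusted p under 0.05 it was 1 of 6 by edgeR (7.82% of all genes) and 2 of 6 by limma voom (8.76%). The gene found by edgeR was ENSBTAG00000043250, with 3.34 ± 2.22 CPM over the 16 LG fetuses and 4.47 ± 2.10 CPM over the 15 MG fetuses (mean ± SD). Its log2 difference was 0.48 (SE 0.212, 95% interval 0.05 to 0.91, adjusted p = 0.624). For ENSBTAG00000049916 the LG fetuses had 2.74 ± 1.45 CPM and the MG fetuses 3.72 ± 1.91 CPM, and the log2 difference was 0.37 (SE 0.195, -0.03 to 0.77, adjusted p = 0.643 in edgeR). The values were 0.27 (-0.11 to 0.66) for ENSBTAG00000043570 and 0.22 (-0.23 to 0.67) for ENSBTAG00000054661. The value of ENSBTAG00000054661 was 0.12 without NoVTM_MG replicate 5 and 0.35 without NoVTM_LG replicate 7. All 4 genes lower in VTM thus had fitted values above 0 for gain, none of which passed. As these 4 genes varied together within groups, their shared sign is not 4 separate observations. ENSBTAG00000006921, at 0.00 (-0.16 to 0.16), and ENSBTAG00000000460, at 0.07 (-0.13 to 0.26), had intervals that left room for differences of at most 0.26 in either direction.

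Split by supplementation, gain again called 0 of the 6 genes by edgeR, without the supplement (0% of all genes) and with it (0% of all genes). At an unadjusted p under 0.05 the counts were 0 of 6 without it and 1 of 6 with it by edgeR, against 4.59% and 14.8% of all genes. They were 2 and 0 by limma voom (9.33% and 11.4%). By adjusted p, DESeq2 called 0 of 6 in both (0.0633% and 0.00703% of all genes), as did limma voom (0.0141% and 0%). ENSBTAG00000043250 was the gene found with the supplement. There its log2 difference for gain was 0.72 (SE 0.319, 95% interval 0.08 to 1.37, adjusted p = 0.301 in edgeR), and 5 of 7 VTM_MG fetuses were above every VTM_LG fetus. Without VTM_MG replicate 2 this value was 0.47. Without the supplement ENSBTAG00000043570 had a log2 difference of 0.48 (-0.06 to 1.02), with 7 of 8 NoVTM_MG fetuses above the NoVTM_LG median. With the supplement the value was 0.07 for ENSBTAG00000043570, 0.27 for ENSBTAG00000049916 and -0.02 for ENSBTAG00000054661.

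**Figure D2:**
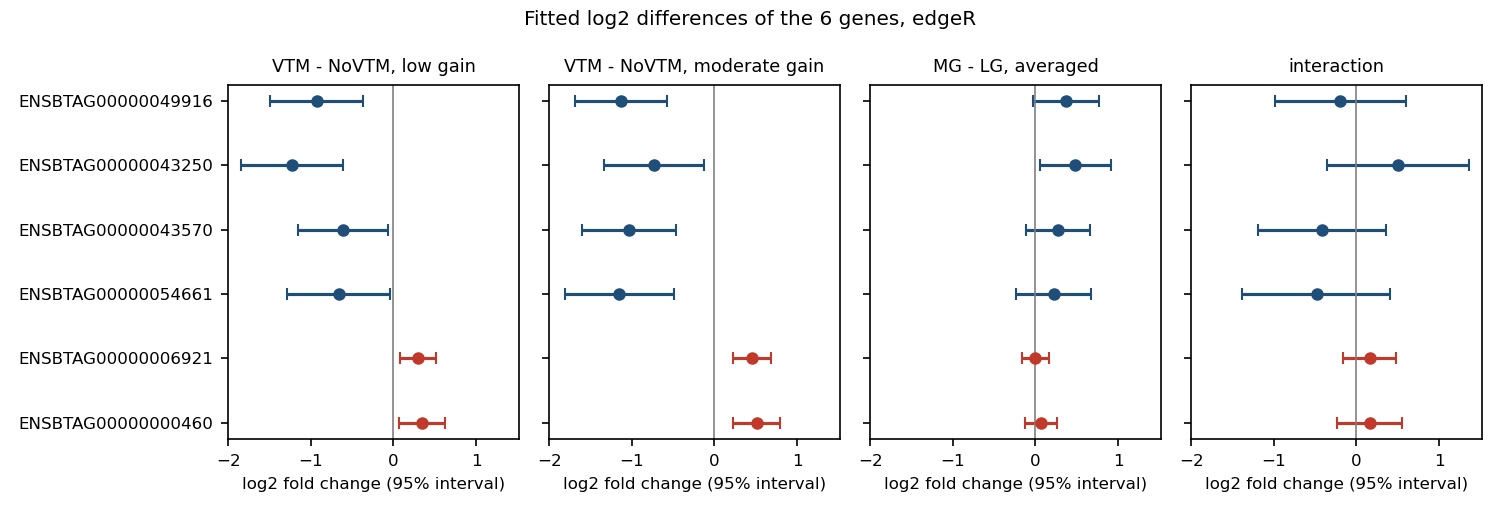
Fitted log2 differences (horizontal axes) of the 6 genes with 95% intervals from edgeR, for VTM minus NoVTM at each level of gain, MG minus LG averaged over supplementation, and the interaction. The supplement panels describe the contrast that chose the genes and are no test, while all 6 interaction intervals and 5 of 6 gain intervals include 0.

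The spread between fetuses of a group sets how far each level can be read. Within groups the SD of ENSBTAG00000043570 was 459 CPM and that of ENSBTAG00000054661 was 629 CPM, of which counting error made up 0.0352% and 0.0204% of the variance. Depth was thus no limit for these 2 genes. Counting error made up 13.6% of the within-group variance of ENSBTAG00000049916, which had 14 to 106 counts per library, 7.96% for ENSBTAG00000043250, 3.53% for ENSBTAG00000006921 and 38.4% for ENSBTAG00000000460, which had 47 to 127 counts. The biological coefficient of variation in edgeR was 34.3%, 38.3%, 36.4% and 41.7% for ENSBTAG00000049916, ENSBTAG00000043250, ENSBTAG00000043570 and ENSBTAG00000054661. That placed each of these 4 genes above at least 94% of all tested genes, whose median was 13.9%. ENSBTAG00000006921 and ENSBTAG00000000460 were close to that median, at 15.2% and 15.7%. The comparison took no account of level. The trend that edgeR fitted for genes of the same level was 22.9%, 21.8%, 13.3% and 13.3% for the 4 genes in the order above. It was 12.4% for ENSBTAG00000006921 and 20.1% for ENSBTAG00000000460, which was thus below its trend. The 4 genes lower in VTM were thus also among the genes that differed most between fetuses fed alike, and the 2 higher genes were not.

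Whether the 6 genes varied together was examined on log2 CPM after each group's mean was subtracted, which removes the supplement difference that chose them. The choice may still have gathered genes that vary together, and this was not tested. There were 15 pairs, tested by permutation of fetuses within groups and adjusted over the 15. All 6 pairs among the 4 lower genes passed, with Pearson's r between 0.61 and 0.84 and Spearman's rho between 0.65 and 0.87 (n = 31, adjusted permutation p for r between 5e-05 and 0.00045, the smallest unadjusted p that 100000 permutations can give being 1e-05). The 9 pairs with at least 1 of the 2 higher genes had r between -0.28 and -0.04, and 0 of them passed (adjusted permutation p between 0.32 and 0.85). Fetuses with a high level of one of the 4 lower genes for their group thus tended to have high levels of the other 3.

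The closest pair was ENSBTAG00000043570 with ENSBTAG00000054661, at r = 0.84 and rho = 0.87 (n = 31, adjusted permutation p = 5e-05 and 3.7e-05), and r was 0.83 without the 2 fetuses farthest from the median. ENSBTAG00000049916 with ENSBTAG00000043250 had r = 0.81 and rho = 0.79 (adjusted permutation p = 5e-05 and 3.7e-05), or r = 0.77 without 2 fetuses. With ENSBTAG00000043570 and ENSBTAG00000054661, ENSBTAG00000049916 had r = 0.80 and r = 0.71. The loosest of the 6 pairs was ENSBTAG00000043250 with ENSBTAG00000054661, at r = 0.61 and rho = 0.65 (adjusted permutation p = 0.00045 and 0.00037), or r = 0.54 without 2 fetuses. Over the 6 pairs, r without the 2 farthest fetuses was 0.54 to 0.83, and without VTM_LG replicates 4 and 7 it was 0.61 to 0.84.

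No pair with a gene higher in VTM passed, nor did the pair of those 2 genes. ENSBTAG00000006921 with ENSBTAG00000000460 had r = -0.08 and rho = -0.08 (n = 31, adjusted permutation p = 0.83 and 0.80). Of the 9 pairs, the farthest from 0 was ENSBTAG00000000460 with ENSBTAG00000054661, at r = -0.28 and rho = -0.34 (adjusted permutation p = 0.32 and 0.16).

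Within NoVTM fetuses alone, the 6 pairs of lower genes had r between 0.62 and 0.88, and all 6 passed (n = 16, adjusted permutation p up to 0.033). Within VTM fetuses alone r was between 0.46 and 0.92, and 4 of 6 passed (n = 15). The other 2 pairs joined ENSBTAG00000043250 with ENSBTAG00000043570 (r = 0.55, adjusted permutation p = 0.083) and with ENSBTAG00000054661 (r = 0.46, adjusted permutation p = 0.089), and fell to 0.29 and 0.25 without the 2 farthest fetuses. By level of gain, 5 of 6 pairs passed in LG (r 0.49 to 0.83, n = 16, permutation test) and 6 of 6 in MG (r 0.72 to 0.88, n = 15). ENSBTAG00000006921 had r between -0.52 and -0.38 with the 4 lower genes among VTM fetuses and between -0.10 and 0.28 among NoVTM fetuses. None of those passed, and the difference between the diets was not tested. Without the 2 farthest fetuses, r with the 4 lower genes was between -0.45 and -0.04 among VTM fetuses and between -0.37 and 0.64 among NoVTM fetuses.

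**Figure D3:**
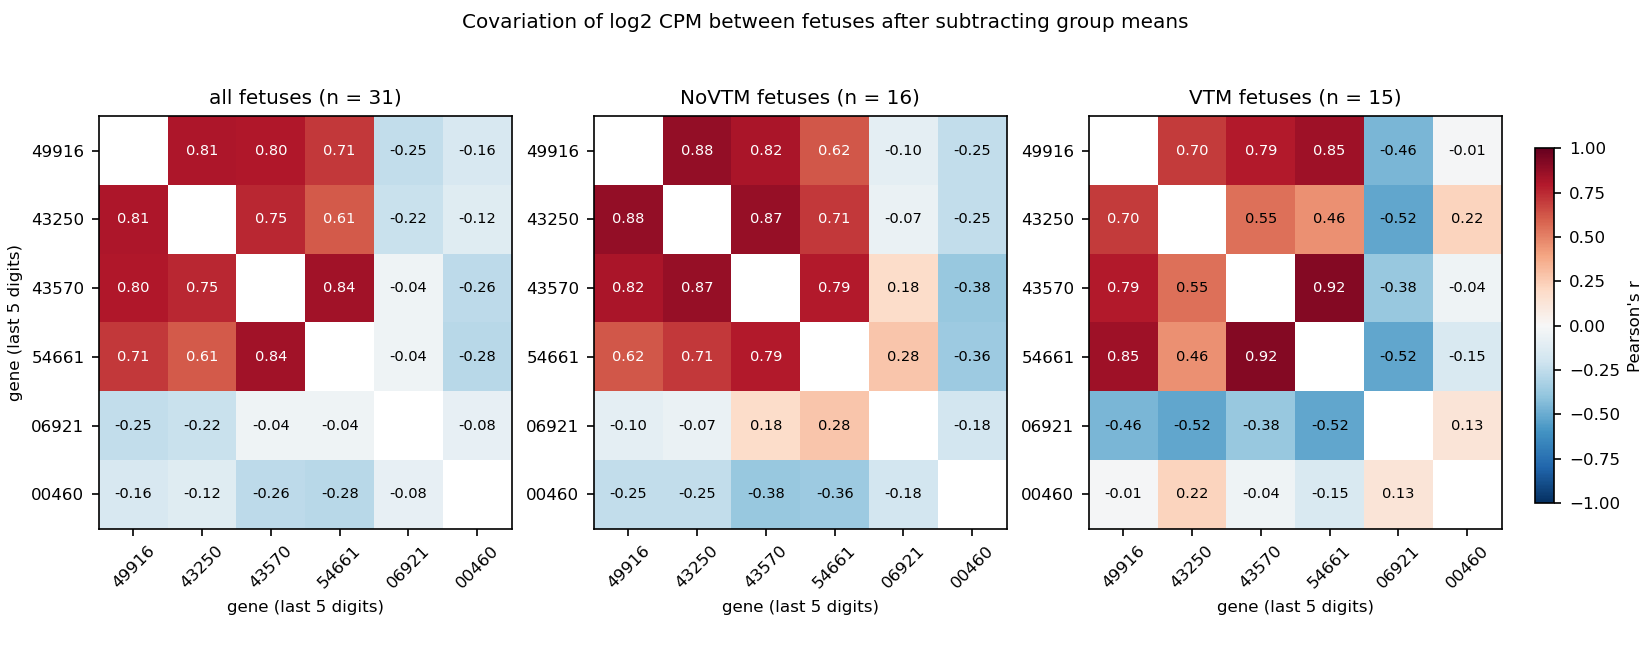
Pearson's r between the 6 genes (rows and columns, by the last 5 digits of the identifier) in log2 CPM after subtracting group means, over all 31 fetuses, the 16 NoVTM fetuses and the 15 VTM fetuses. The 4 genes lower in VTM form a block of positive values, 0.61 to 0.84 over all fetuses, and the 2 higher genes stay outside it.

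Single fetuses were also set against the median of all fetuses. Group means were not subtracted here, so these values still hold the supplement difference that chose the genes. They are a description and add no support to the covariation within groups. NoVTM_MG replicate 5 stood on average 1.42 log2 units above the median of all fetuses over the 4 lower genes and ranked between the highest and the fourth highest for each of them. NoVTM_LG replicate 7 stood at 1.20, NoVTM_MG replicate 8 at 1.19 and NoVTM_MG replicate 4 at 1.06. At the low end were VTM_LG replicate 7 at -1.26, VTM_MG replicate 6 at -1.10, NoVTM_LG replicate 4 at -1.09 and VTM_LG replicate 2 at -1.04. NoVTM_LG replicate 4 was thus an unsupplemented fetus at the level of the lowest supplemented ones, and it was below the median for all 4 genes. All 4 genes were above the median in 2 of 8 NoVTM_LG, 0 of 8 VTM_LG, 5 of 8 NoVTM_MG and 1 of 7 VTM_MG fetuses. All 4 were below it in 1 of 8, 5 of 8, 0 of 8 and 4 of 7. As the genes were chosen for the supplement difference and varied together, the 4 genes are not separate evidence of it.

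**Figure D4:**
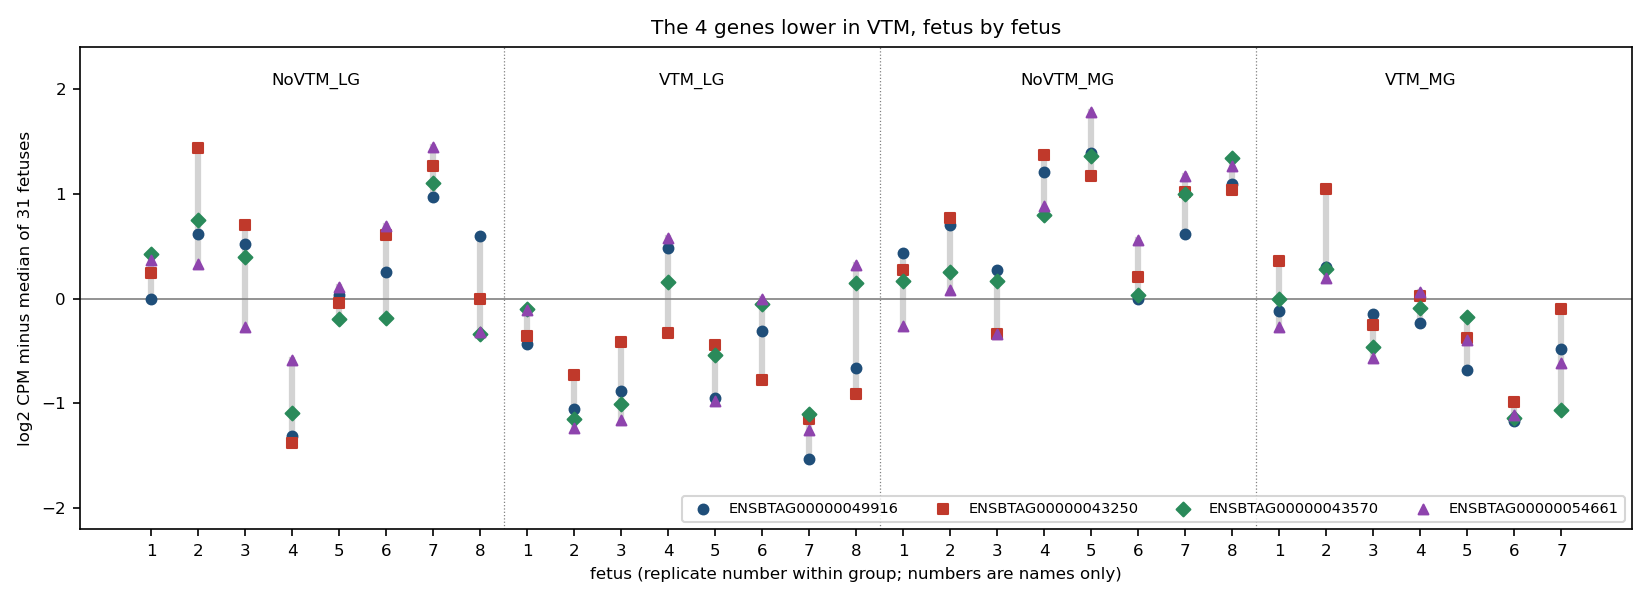
Log2 CPM of the 4 genes lower in VTM in each of the 31 fetuses, as the difference from the gene's median over all fetuses, with grey bars spanning the 4 genes. Group means were not subtracted. The 4 symbols of many fetuses lie on the same side of the median, as in NoVTM_MG replicate 5 (mean 1.42) and VTM_LG replicate 7 (mean -1.26), and 5 of 8 VTM_LG fetuses have all 4 genes below the median.

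Ratios between genes of a library varied less than the genes themselves. The within-group SD of the log2 ratio of ENSBTAG00000043570 to ENSBTAG00000054661 was 0.36, against 0.59 and 0.67 for the 2 genes. For ENSBTAG00000049916 to ENSBTAG00000043250 it was 0.38, against 0.57 and 0.63. For ENSBTAG00000043250 to ENSBTAG00000054661, the loosest pair, it was 0.58, against 0.63 and 0.67.

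Depth and the main axis of variation were set against the 6 genes in the same way. Of 12 relations between the 6 genes and the library total or the first principal component, 0 passed the permutation test (smallest adjusted p = 0.64, n = 31). For the library total, r was between -0.26 and 0.02, and for the first principal component, which carried 14.1% of the variance, between -0.19 and 0.13. Without VTM_LG replicates 4 and 7 the ranges were -0.13 to 0.02 and -0.19 to 0.15 (smallest adjusted permutation p = 0.95, n = 29). The 6 pairs of lower genes also passed after the first component was subtracted. No measure of RNA quality was given per sample, so its part in the covariation was not tested.

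The 4 genes were then compared with the rest of the table. Over the 14227 other tested genes, the median size of r was 0.13 for ENSBTAG00000049916, 0.13 for ENSBTAG00000043250, 0.12 for ENSBTAG00000043570 and 0.12 for ENSBTAG00000054661. An r of at least 0.6, a value set after the data were seen, was reached by 15, 16, 14 and 13 genes, or 0.105%, 0.112%, 0.0984% and 0.0914% of those compared. For each gene the other 3 were among them. ENSBTAG00000006921 had 7 such genes (0.0492%) and ENSBTAG00000000460 had 3 (0.0211%), none of which was among the 6. These correlations are over 31 fetuses, the genes being counted in the same libraries, and are given as a description.

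The genes most like each of the 6 were then listed as the 2 with the highest r among genes averaging at least 1 CPM. For ENSBTAG00000049916 they were ENSBTAG00000043250 (r = 0.81) and ENSBTAG00000043570 (r = 0.80), and for ENSBTAG00000043250 they were ENSBTAG00000049916 (r = 0.81) and ENSBTAG00000043570 (r = 0.75), so both lists stayed within the 6. ENSBTAG00000043570 and ENSBTAG00000054661 had the same nearest gene outside the 6, ENSBTAG00000051364, at r = 0.91 and r = 0.92, closer than they were to each other. ENSBTAG00000051364 was at 825 ± 399 CPM (SD) over the 16 NoVTM fetuses and at 480 ± 196 CPM over the 15 VTM fetuses, and its rank for the supplement was 11, outside the rule.

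The genes just outside the rule were also set against the 4 lower genes. Of the 8 genes ranked 7 to 14, 7 were lower in VTM, and 3 had a mean r of at least 0.6 with the 4 lower genes. Chosen after their values were seen, these were ENSBTAG00000047206 (mean r = 0.66), ENSBTAG00000051364 (0.83) and ENSBTAG00000054548 (0.62). The first gene outside, ENSBTAG00000042458, had a mean r of 0.53. The remaining 4 had mean r between -0.20 and 0.08. The 8 genes were ranked on the contrast that the rule used. Neither count was set against its share over all genes tested, so nothing is read from them.

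For the 2 higher genes, the nearest genes all lay outside the 6. ENSBTAG00000006921 was nearest to ENSBTAG00000014725 (r = 0.67) and ENSBTAG00000013109 (r = 0.62), whose mean log2 CPM differed between VTM and NoVTM by 0.30 and 0.07. ENSBTAG00000013109 was at 55.7 ± 5.25 CPM (SD) over the 16 NoVTM fetuses and at 58.3 ± 4.15 CPM over the 15 VTM fetuses. For ENSBTAG00000000460 the nearest were ENSBTAG00000008117 (r = 0.63) and ENSBTAG00000025320 (r = 0.61), which differed by 0.03 and -0.03. On the same scale ENSBTAG00000051364, nearest to 2 of the lower genes, differed by -0.74, and whether these differences themselves differ was not tested.

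**Figure D5:**
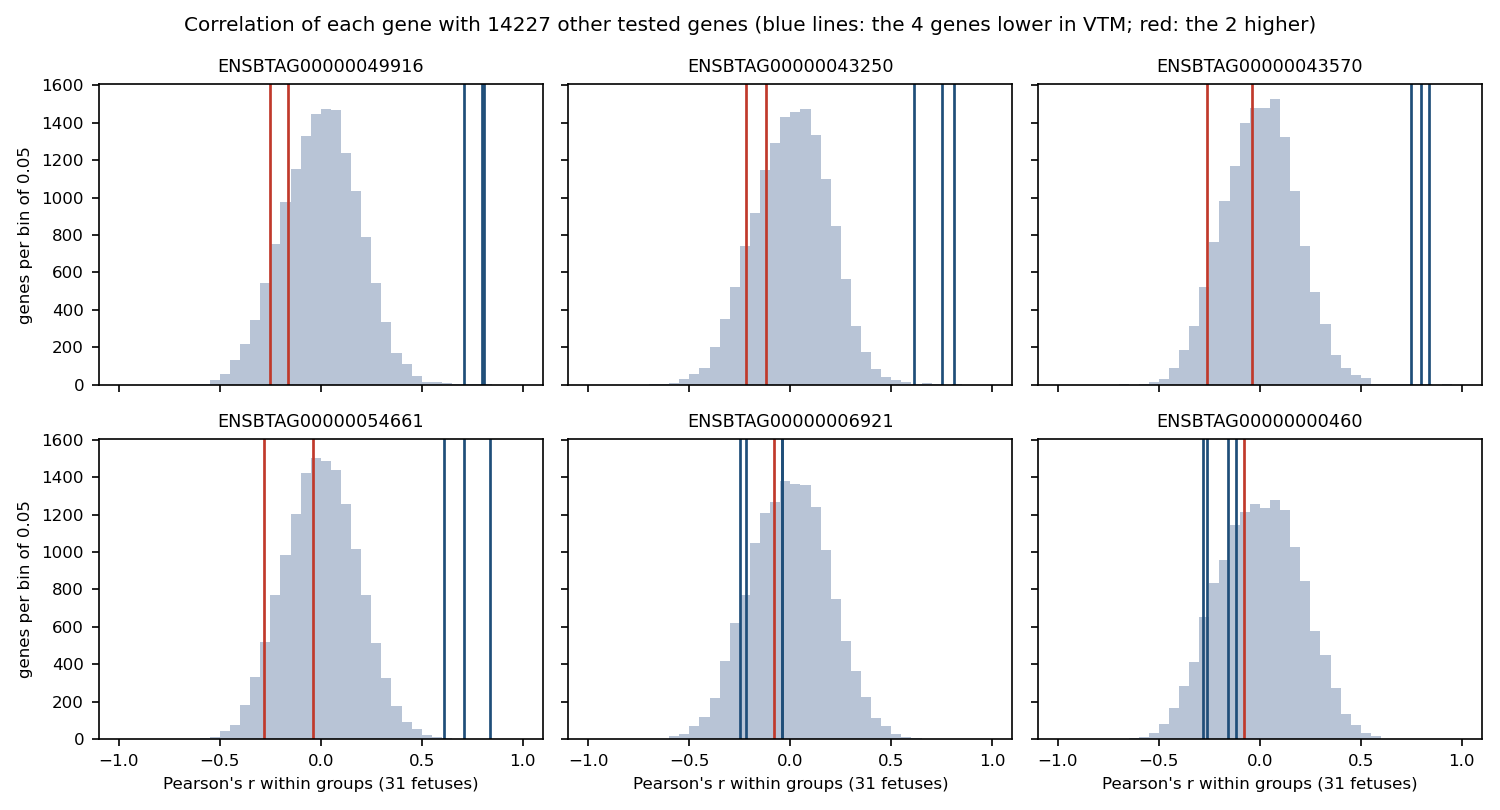
Histograms of Pearson's r within groups between each of the 6 genes and the 14227 other tested genes (vertical axis, genes per bin of 0.05), with lines at the other 5 genes of the set. For the 4 genes lower in VTM the blue lines stand at 0.61 to 0.84, in a tail reached by 13 to 16 genes, and for the 2 higher genes all lines lie in the body of the histogram.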

How the data were processed

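The authors deposited raw counts per Ensembl gene for 31 libraries, as whole numbers with no normalization. Paired 150-bp reads came from strand-specific libraries, per the labels. The submitters' processing notes name CASAVA, FastQC 0.11.8, MultiQC 1.9, STAR 2.7.3a and edgeR. The sources used here do not name the counting program, its use of strand, the build or the annotation, so reads shared with similar or overlapping genes were not checked. Columns were matched to samples by title, and replicate numbers are names only.

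Counts were filtered with filterByExpr (minimum count 10, minimum total 15), scaled by TMM and fitted with 1 mean per group by the quasi-likelihood test of edgeR 4.0.16 in R 4.3.3, with Benjamini-Hochberg adjustment over 14228 genes and a threshold of 0.05. The 6 genes and all lists were chosen with earlier results of these data known. The named genes are these 6, the next in rank, and the 2 nearest each in r. Covariation used log2 CPM (prior count 2) less group means, with 100000 two-sided permutations within groups. DESeq2 1.42.0, limma 3.58.1 (voom with quality weights), RLE scaling, 2 other filters and omitted libraries were alternatives. Lists of vitamin, mineral and cell type genes could not be run without symbols. The edgeR fit was also tested on simulated data, with changes of 1.25, 1.5, 2 and 3-fold in genes drawn from all those tested. For gain averaged over supplementation it recovered 48%, 78%, 90% and 100% of them. For the interaction it recovered 2%, 52%, 74% and 94%, so small interactions would mostly be missed. These shares do not carry over to the 4 lower genes. Their biological coefficients of variation were 34.3% to 41.7%, against a median of 13.9% over all tested genes. Their interactions had SEs of 0.382 to 0.44 on the log2 scale, so larger ones could be missed in them too. All fetuses had 1 sire, and p-values refer to the variation between them.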

Additional observations from a re-analysis of the deposited data

Results flagged for a closer look

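Of 24 sets of values (6 genes in 4 groups), 2 held a fetus far from the rest of its group, where chance gives about 1 in 20. ENSBTAG00000049916 was at 4.00 CPM in VTM_LG replicate 4, the next value in the group being 2.26 CPM. ENSBTAG00000054661 was at 2750 CPM in NoVTM_LG replicate 7, the next being 1634 CPM. Both fetuses were also the highest of their group for ENSBTAG00000043570.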

How the results depend on the processing

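Over every alternative run, the 4 lower and 2 higher genes kept the direction of their supplement difference at both levels of gain, 0 of the 6 passed for gain or for the interaction, and the same 6 of 15 pairs passed for covariation. The kept direction of the supplement difference is a description only, as the genes were chosen for it in these libraries. The number of genes in the whole table called for supplementation, 0 by edgeR, was 3 in DESeq2, 2 in limma voom and 1 without VTM_LG replicates 4 and 7. Leaving out 1 library gave 0 to 3, the highest without VTM_MG replicate 2. It was 2 when NoVTM_MG replicate 3 or NoVTM_LG replicate 4 was omitted, 1 when VTM_LG replicate 4 was, and 0 for the other 27.

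The values that changed sign had not passed. For gain, ENSBTAG00000006921 was -0.05 in limma voom, -0.01 without VTM_LG replicates 4 and 7, and -0.04 to 0.04 with 1 library left out. With the supplement, ENSBTAG00000054661 was 0.23, 0.07 and -0.13 to 0.17 in that order, and ENSBTAG00000043570 was -0.06 to 0.17 with 1 library left out. ENSBTAG00000000460 was -0.10 to 0.05 for gain without supplement, and the interaction of ENSBTAG00000049916 was -0.33 to 0.05. The r of ENSBTAG00000006921 was -0.17 to 0.03 with ENSBTAG00000000460, -0.12 to 0.07 with ENSBTAG00000043570 and -0.12 to 0.12 with ENSBTAG00000054661 (0.01 without VTM_LG replicates 4 and 7). With total counts, r was -0.05 to 0.30 for ENSBTAG00000006921 (-0.02 without those 2), -0.11 to 0.07 for ENSBTAG00000043250 (0.02) and -0.12 to 0.08 for ENSBTAG00000000460. With the first principal component it was -0.15 to 0.28 for ENSBTAG00000049916, -0.05 to 0.10 for ENSBTAG00000043250, -0.05 to 0.09 for ENSBTAG00000043570 (0.14) and -0.11 to 0.25 for ENSBTAG00000054661. The causes were not tested. No paired analysis was possible because the labels give no replicate numbers shared between groups.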
